A study of Mus musculus with 19 samples.

Results

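Livers of vehicle-injected mice labelled IL-6 knockout were compared with livers of non-injected wild-type (WT) mice, across all genes. The members of the comparison are 8 of the 19 RNA sequencing libraries of the series, chosen by their labels: 4 knockout vehicle libraries and 4 libraries labelled as the normal control. All mice were of the C57BL/6 strain, per the labels. The knockout mice, labelled IL-6-KO, had received 2 intraperitoneal vehicle injections 3 h apart, and their livers were taken 6 h after the first. The normal mice were WT and had no injection. Genotype and injection therefore differ together, and their parts in a difference cannot be told apart within this comparison. The WT vehicle group (4 libraries, WT mice given the same injections) differs from normal by injection and from knockout vehicle by genotype, so its values are given beside the others. It shares the normal libraries with the main comparison, and the 2 comparisons with normal are for that reason not independent of each other. No source used here gives ages, sexes, the content of the vehicle or the extent of the Il6 deletion. Whether the replicates of a group came from different mice is not stated in the labels. P-values thus reflect how far these libraries vary, and part of that variation may be technical. Libraries are written below as N1 to N4 (normal), V1 to V4 (WT vehicle) and K1 to K4 (knockout vehicle).

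Interleukin-6 is a cytokine that acts on hepatocytes through STAT3 and drives the synthesis of acute phase proteins, plasma proteins whose production shifts in inflammation. Handling and injection also raise glucocorticoids, which act together with that cytokine on many liver genes. Metallothioneins are small cysteine-rich proteins that bind zinc and copper; their genes are switched on by metals through the factor MTF1, which binds metal response elements, and by glucocorticoids and inflammatory cytokines. Heat shock genes encode chaperones and are induced by the factor HSF1 through heat shock elements.

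The start regions of the metallothionein genes Mt1 and Mt2 are shown because both genes rose in injected livers of both genotypes, and that of Chordc1 because it is a co-chaperone gene of the heat shock group that fell. Chordc1 was the only member that fell whose window held the heat shock element. Each is 300 bases, from 250 before to 50 after the gene start, from RefSeq on build GRCm38.p6, written 5′ to 3′ on the gene's strand (+ for all 3 genes). Capitals mark the metal response element core (TGCACNC or TGCGCNC, either strand) in Mt1 and Mt2, and the heat shock element (the units GAA, TTC and GAA in a row with 2 bases of any kind between units, either strand, overlapping matches joined) in Chordc1. Their positions are chr8:94178839-94179138 for Mt1, chr8:94172368-94172667 for Mt2 and chr9:18292017-18292316 for Chordc1.
Mt1: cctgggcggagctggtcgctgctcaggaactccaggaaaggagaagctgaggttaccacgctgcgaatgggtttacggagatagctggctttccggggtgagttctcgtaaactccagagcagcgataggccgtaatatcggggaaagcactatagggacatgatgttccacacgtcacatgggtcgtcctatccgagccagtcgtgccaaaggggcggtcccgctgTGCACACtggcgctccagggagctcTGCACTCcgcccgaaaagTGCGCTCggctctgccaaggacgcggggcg
Mt2: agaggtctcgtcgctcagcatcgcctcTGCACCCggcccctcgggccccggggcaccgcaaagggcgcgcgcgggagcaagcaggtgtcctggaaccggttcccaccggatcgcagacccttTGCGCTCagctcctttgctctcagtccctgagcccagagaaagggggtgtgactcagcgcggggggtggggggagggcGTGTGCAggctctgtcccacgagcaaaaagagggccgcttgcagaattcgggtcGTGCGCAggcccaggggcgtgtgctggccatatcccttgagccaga
Chordc1: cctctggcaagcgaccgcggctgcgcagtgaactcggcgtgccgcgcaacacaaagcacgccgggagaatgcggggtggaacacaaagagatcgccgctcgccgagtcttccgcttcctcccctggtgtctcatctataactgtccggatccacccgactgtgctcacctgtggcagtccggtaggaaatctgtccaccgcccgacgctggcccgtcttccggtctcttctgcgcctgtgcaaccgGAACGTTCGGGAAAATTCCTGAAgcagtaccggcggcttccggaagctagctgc

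The metal core occurred 3 times in the Mt1 window and 4 times in that of Mt2. At least 1 match lay in 25.7% of all 32851 windows of this length in the table, and 4 or more in 0.517%. The heat shock element lay in 0.603% of all windows and in 5 of 25 windows (20%) of the heat shock and chaperone list. Among the 9 windows of the list's members that fell, Chordc1 had the only match (11.1%). These matches describe the letters in the windows and are not evidence of binding.

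The 8 libraries held 42905740 to 69740746 gene counts. Levels below are TMM-scaled CPM (gene counts relative to library size), given by library or as the group's mean ± SD (n = 4), and differences are log2 fold changes ± SE from edgeR. TMM factors were 1.1095 to 1.1527 in the normal and 1.0246 to 1.0796 in the knockout vehicle libraries, without overlap. On the first principal component over the 12 libraries of these 3 groups (22.07% of the variance), the normal libraries lay at -40.82 to -16.48 and the knockout vehicle libraries at 6.32 to 38.86, with K2 the farthest. The WT vehicle libraries lay between -0.27 and 29.01. All 13 hepatocyte markers were detected, with summed levels of 106825.8 to 119166.8 CPM in normal and 139253.9 to 147887.4 CPM in knockout vehicle libraries, which fits the liver label. In such bulk tissue, a lower level can come from fewer cells of a type or from less RNA per cell, and these cannot be told apart.

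The targeted gene Il6 (ENSMUSG00000025746) was almost undetected in every group. N1 to N4 had 0, 2, 0 and 1 counts, V1 to V4 had 4, 0, 0 and 0, and K1 to K4 had 4, 1, 1 and 3. It did not pass the filter on low counts and was not tested, and these counts cannot check the genotype labels. Abhd1 (ENSMUSG00000006638), a gene near Il6 that RefSeq lists as a transcribed pseudogene, did divide the libraries as labelled. Its levels were 3.05, 3.08, 2.19 and 2.90 CPM in N1 to N4, 3.04, 4.10, 3.81 and 4.00 CPM in V1 to V4, and 65.8, 48.4, 59.0 and 55.6 CPM in K1 to K4. The lowest knockout library lay far above the highest WT library, and the rise over normal was 20.5-fold (4.36 ± 0.15, edgeR adjusted p = 3.79e-14).

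Across all genes, 502 of 15570 tested (3.22%) passed an adjusted p of 0.05, with 302 higher (1.94%) and 200 lower (1.28%) in knockout vehicle livers. Of these, 158 (1.01%) changed at least 2-fold, 90 higher (0.578%) and 68 lower (0.437%). An unadjusted p under 0.05 was reached by 2634 genes (16.9%). The CPM of the groups did not overlap for 1695 genes (10.9%), and for 423 genes (2.72%) that also passed. Over all genes tested, the log2 fold change had a median of 0.0009. The shares of all genes that passed, 3.22% in either direction, 1.94% higher and 1.28% lower, are the base for the list counts below. A single call in a list of 29 to 34 genes is near the 3.22%. In WT vehicle against normal, 311 genes (2%) passed, 183 higher (1.18%) and 128 lower (0.822%). Between the injected groups themselves, 11 genes (0.0706%) passed, 8 higher (0.0514%) and 3 lower (0.0193%) in knockout, with 933 (5.99%) at an unadjusted p under 0.05. The number of genes passing fell when any 1 of the 8 libraries was left out, from 477 without K4 down to 176 without K2. It was 257 without N2, 298 without N3, 301 without N4 and 323 without K3. Each such fit also has fewer libraries, so calls lost on omission do not by themselves mark the library left out. Genes higher numbered 171 without N1 and 144 without N3, so that genes lower were then the more numerous (174 and 154). When edgeR's glmTreat was used to test for changes beyond 1.5-fold, 19 genes passed, 10 higher and 9 lower, and a fit to only these 8 libraries left 248. For WT vehicle against normal the count was 128 without N2 and 179 without V2, and between the injected groups it was 2 without V4, 5 without K3 and 6 without V2.

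**Figure D1:**
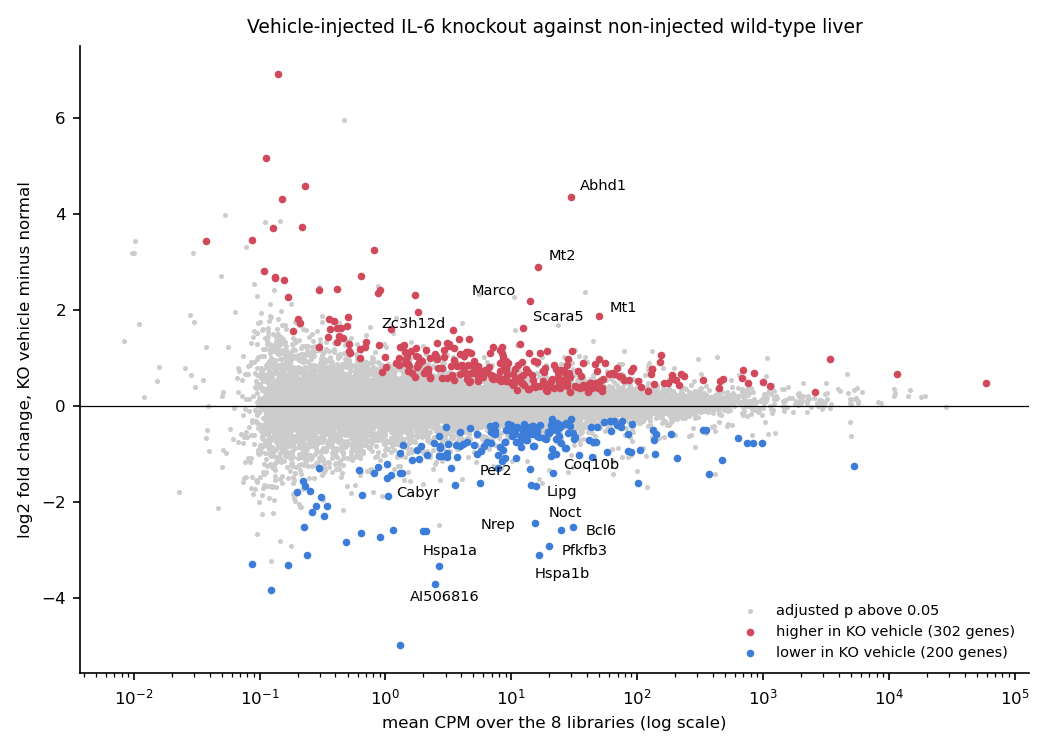
Each point is 1 of 15570 genes, with its mean CPM over the 8 libraries (log scale) against its log2 fold change in knockout vehicle minus normal; colour marks the 302 genes higher and 200 lower at an adjusted p of 0.05. Abhd1 and Mt2 are the labelled genes with the highest values, and AI506816, Hspa1a and Hspa1b those with the lowest.

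Metallothionein transcripts rose in knockout vehicle livers. Mt2 (ENSMUSG00000031762) was at 3.39, 3.68, 4.23 and 4.02 CPM in N1 to N4 and at 13.6, 51.9, 30.5 and 18.5 CPM in K1 to K4. The groups did not overlap, K2 was the highest and K1 the lowest knockout library, and the rise was 7.46-fold (2.90 ± 0.43, edgeR adjusted p = 0.00218). Mt1 (ENSMUSG00000031765) was at 19.4, 20.7, 20.8 and 25.0 CPM in N1 to N4 and at 40.2, 121, 86.3 and 67.9 CPM in K1 to K4. Again without overlap, it rose 3.67-fold (1.88 ± 0.37, edgeR adjusted p = 0.0133). In WT vehicle livers the same genes stood higher still, with Mt2 at 33.3, 103, 139.8 and 109 CPM and Mt1 at 79.8, 239.8, 342 and 243 CPM in V1 to V4. Against normal these were differences of 4.65 ± 0.46 and 3.40 ± 0.40 (edgeR adjusted p = 8.68e-05 and 0.000416). Knockout minus WT vehicle was -1.75 ± 0.40 for Mt2 and -1.52 ± 0.37 for Mt1, which did not pass (edgeR adjusted p = 0.189 and 0.252), and V1 lay within the range of the knockout libraries. Without K2 the value of Mt1 was 1.59 and its call was lost (adjusted p = 0.0516).

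Of the 22 tested genes of metallothioneins and zinc transporters, 2 rose, 1 fell and 19 did not pass, with a median of -0.006 against 0.0009 for all genes. The gene that fell was Mtf1, encoding the metal-sensing factor named above, at 14.7 ± 1.48 CPM in normal and 11 ± 0.747 CPM in knockout vehicle livers (-0.42 ± 0.10, edgeR adjusted p = 0.0268). Its call was lost without N2, N3, N4, K1, K2 or K3 (values -0.45 to -0.37, adjusted p up to 0.0913). Slc30a1, the zinc exporter of the plasma membrane and also an MTF1 target, was at 25.8 ± 2.03 and 30.1 ± 1.25 CPM and did not pass (0.22 ± 0.09, edgeR adjusted p = 0.164). Slc39a14, a zinc and iron importer of hepatocytes, was at 109 ± 8.94 CPM in normal, 153 ± 29.5 CPM in WT vehicle and 96.2 ± 10.4 CPM in knockout vehicle livers and passed in none of the 3 comparisons. The zinc importer Slc39a4 did differ between the injected groups. It was at 67.9, 74.3, 75.6 and 68.9 CPM in V1 to V4 and at 37.2, 21.4, 27.0 and 40.9 CPM in K1 to K4 (-1.18 ± 0.19, edgeR adjusted p = 0.0155). Every knockout library lay below every WT vehicle library, while N1 to N4, at 50.4, 51.0, 31.3 and 29.0 CPM, overlapped the knockout range (-0.35 ± 0.19, edgeR adjusted p = 0.376).

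The other leading rises, chosen as the largest among called genes of at least 2 CPM whose groups did not overlap, were of mixed function. Marco, a scavenger receptor of macrophages, is described with the immune cells below. Scara5, a scavenger receptor that binds ferritin, was at 2.84, 9.46, 4.49 and 7.44 CPM in N1 to N4 and at 17.6, 25.9, 18.8 and 12.5 CPM in K1 to K4. It rose 3.09-fold (1.63 ± 0.40, edgeR adjusted p = 0.0375), and was at 28.9 ± 17.9 CPM in WT vehicle livers, where V1 reached 54.9 CPM. Its call was lost without N1, N3, N4, K1, K2 or K3 (values 1.4 to 1.74, adjusted p up to 0.130). Zc3h12d, a CCCH zinc finger gene of the family of regulatory RNases, rose 2.64-fold, from 2.52 ± 0.518 to 6.64 ± 2.06 CPM (edgeR adjusted p = 0.000458). Fbxo32, the ubiquitin ligase subunit atrogin-1, rose 2.47-fold to 3.64 ± 0.616 CPM, and Rnd1 2.44-fold to 16.7 ± 5.11 CPM (edgeR adjusted p = 0.00308 and 0.00178). Cbx2, a Polycomb subunit, rose 2.32-fold to 11.8 ± 4.11 CPM and the protease gene Capn8 2.47-fold to 4.41 ± 1.37 CPM (edgeR adjusted p = 0.00518 and 0.00527). In WT vehicle livers Zc3h12d, Fbxo32, Rnd1 and Cbx2 were at 6.12 ± 1.07, 3.24 ± 0.459, 13.1 ± 3.36 and 11.2 ± 1.28 CPM and rose over normal as well (edgeR adjusted p = 0.00103, 0.0104, 0.0185 and 0.0108). Capn8 was at 2.84 ± 0.811 CPM there and did not pass (edgeR adjusted p = 0.172).

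Among the leading falls were genes of metabolism and of its daily control. Pfkfb3, which makes an allosteric activator of glycolysis, was at 34.7, 32.8, 41.8 and 30.6 CPM in N1 to N4 and at 5.28, 2.24, 4.42 and 6.65 CPM in K1 to K4. With every knockout library far below every normal one, its level was 7.58-fold lower (-2.92 ± 0.35, edgeR adjusted p = 0.00053). Noct, encoding the rhythmic phosphatase nocturnin, was at 14.3, 39.0, 78.1 and 39.0 CPM in N1 to N4 and at 3.88, 6.83, 8.76 and 9.13 CPM in K1 to K4. The normal libraries were spread, N1 being the lowest, but did not overlap the knockout ones (-2.58 ± 0.39, edgeR adjusted p = 0.00249). Bcl6, a transcriptional repressor, was at 25.7, 77.1, 95.2 and 14.1 CPM in N1 to N4. In K1 to K4 it was at 11.5, 13, 6.60 and 5.74 CPM. It was 5.74-fold lower (-2.52 ± 0.48, edgeR adjusted p = 0.0114), with N4 close to K2. In WT vehicle livers Pfkfb3, Noct and Bcl6 were at 7.34 ± 3.39, 9.44 ± 2.17 and 8.23 ± 2.09 CPM and also fell against normal (edgeR adjusted p = 0.0025, 0.00905 and 0.0104). Bcl6 was the 1 call among 17 genes of the growth hormone and STAT5 axis (median -0.04). Fitted with these 8 libraries alone, Noct and Bcl6 did not pass.

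Further leading falls were of single genes of mixed function. Lipg, the endothelial lipase, was at 24.1 ± 8.79 in normal and 7.60 ± 0.623 CPM in knockout vehicle livers (-1.66 ± 0.31, edgeR adjusted p = 0.00862). Cabyr, a calcium-binding protein first known from sperm, was at 5.39 ± 0.768 and 1.71 ± 0.684 CPM (-1.64 ± 0.24, edgeR adjusted p = 0.000884). Coq10b, a coenzyme Q binding protein of mitochondria, was at 30.9 ± 5.06 and 11.8 ± 6.25 CPM (-1.4 ± 0.30, edgeR adjusted p = 0.0200). Nrep, a neuronal regeneration related gene, was at 25.9 ± 14.2 and 4.79 ± 1.59 CPM (-2.44 ± 0.55, edgeR adjusted p = 0.0255). Plac9a, which has near-identical copies, was at 11.2 ± 2.81 and 4.56 ± 1.26 CPM (-1.30 ± 0.26, edgeR adjusted p = 0.0106). The call of Coq10b was lost without N4 (-1.30, adjusted p = 0.0533) or K2 (-1.2, 0.0646), and that of Nrep without N4 (-2, 0.0718), K2 (-2.21, 0.0938) or K3 (-2.50, 0.0579). WT vehicle levels of Lipg, Coq10b, Nrep and Plac9a were 12.6 ± 4.97, 19.5 ± 6.65, 8.13 ± 4.11 and 9.42 ± 2.35 CPM, none of which passed against normal, and Cabyr, at 2.11 ± 0.403 CPM, did (edgeR adjusted p = 0.00397).

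**Figure D2:**
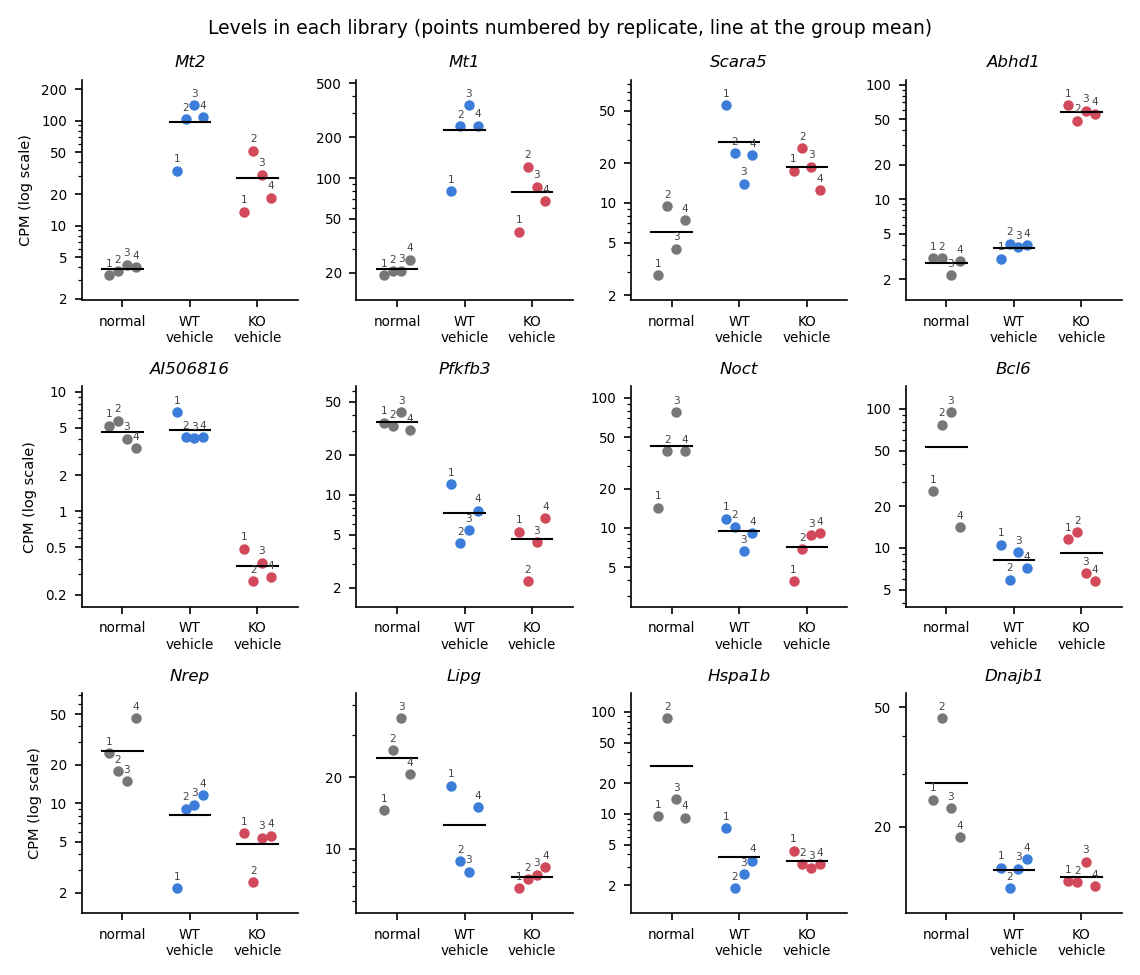
CPM (log scale) of 12 genes in each library of the normal, WT vehicle and knockout (KO) vehicle groups; points carry the replicate number and lines mark group means. Mt2, Mt1 and Scara5 were higher in both injected groups, Abhd1 and AI506816 stood apart in knockout libraries alone, and N2 was high for Hspa1b and Dnajb1.

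Several of the genes that separated knockout from WT livers lie near Il6. By gene order in RefSeq, among the 50 nearest tested genes on each side of Il6, 13 of 100 passed against normal (13%, 8 higher and 5 lower), compared with 26 of the 847 other tested genes on that chromosome (3.07%). Between the injected groups 5 of the 100 and 1 of the 847 passed. This window was chosen after values were seen, and no test was made of it. The noncoding gene AI506816 was at 5.23, 5.76, 4.06 and 3.40 CPM in N1 to N4, at 6.80, 4.17, 4.08 and 4.16 CPM in V1 to V4, and at 0.487, 0.260, 0.373 and 0.281 CPM in K1 to K4. Its level was 13.1-fold lower in knockout vehicle than in normal livers (-3.71 ± 0.30, edgeR adjusted p = 5.01e-07), and the difference from WT vehicle was -3.78 ± 0.30 (edgeR adjusted p = 3.58e-07). Rint1, which encodes a vesicle tethering protein, was at 10, 13.3, 10.1 and 11.4 CPM in N1 to N4 and within 5.79 to 6.09 CPM in K1 to K4 (-0.93 ± 0.14, edgeR adjusted p = 0.000871). Galnt11, a glycosyltransferase gene, rose 1.71-fold, from 9.57 ± 0.322 to 16.4 ± 0.715 CPM, with 12.2 ± 0.584 CPM in WT vehicle livers (edgeR adjusted p = 4.21e-06 against normal and 0.0155 against WT vehicle). WT vehicle livers also passed against normal for Galnt11 (0.35 ± 0.07, edgeR adjusted p = 0.0135). The predicted gene Gm2420 had 0 counts in each normal library and 15, 23, 12 and 10 in K1 to K4, at least 21.4-fold higher when set against 3 counts over the normal group. Gm10419, farther along that chromosome, had 1, 0, 1 and 2 counts in N1 to N4 and 19, 59, 21 and 1 in K1 to K4, so K4 did not differ from normal. Its log2 value of 4.58 was 3.85 without K2 and kept its call, which was lost under limma-voom (3.39, adjusted p = 0.0554) and in a fit to these 8 libraries alone (4.59, 0.0523). Rint1, Galnt11, Gm2420 and Gm10419 were picked after their values were seen.

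Other genes that separated knockout from both WT groups lie outside that window, and those named here were also picked after their values were seen. Susd4, a complement-inhibiting membrane protein, rose 1.69-fold to 33.2 ± 5.67 CPM, against 19.7 ± 2.73 in normal and 18.8 ± 2.29 CPM in WT vehicle livers (edgeR adjusted p = 0.00308 against normal and 0.0113 against WT vehicle). Ikbke, an innate immune kinase gene, rose 1.66-fold to 22.4 ± 3.25 CPM (edgeR adjusted p = 0.00136 against normal and 0.0358 against WT vehicle). Mup21, one of the major urinary protein genes, whose reads near-identical copies can share, was at 422, 489, 508 and 645 CPM in N1 to N4 and at 981, 993, 669.6 and 814 CPM in K1 to K4. It rose 1.68-fold (edgeR adjusted p = 0.0211 against normal and 0.0113 against WT vehicle), with N4 and K3 close to each other, and lost its call against normal without N1, N2, N3, K1 or K2 (values 0.66 to 0.73, adjusted p up to 0.0846). S100a8 is given with the neutrophil genes.

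A minority of acute phase genes rose. Of 33 positive acute phase genes, 5 rose, none fell and 28 did not pass, with a median of 0.33. Over all genes tested, 1.94% were higher. In WT vehicle against normal 5 of the 33 rose as well, with a median of 0.46. Haptoglobin (Hp), the hemoglobin-binding plasma protein, was at 2587, 2284, 2259 and 2050.0 CPM in N1 to N4 and at 5786, 4636, 3708 and 3794 CPM in K1 to K4. The groups did not overlap and the rise was 1.95-fold (0.97 ± 0.20, edgeR adjusted p = 0.0117). The lipopolysaccharide-binding protein gene Lbp rose 1.69-fold to 164 ± 23.0 CPM, the protease inhibitor gene Serpina3m 1.57-fold to 231 ± 45.5 CPM, ceruloplasmin (Cp) 1.42-fold to 1167 ± 158 CPM and Itih3, an inter-alpha-trypsin inhibitor chain, 1.39-fold (edgeR adjusted p = 0.0309, 0.0132, 0.0213 and 0.0185). WT vehicle livers had 3479 ± 451 CPM of Hp, 152 ± 12.1 of Lbp, 276 ± 41.8 of Serpina3m, 1039 ± 64.3 of Cp and 947 ± 88.8 of Itih3, of which Serpina3m and Itih3 passed against normal (edgeR adjusted p = 0.00178 and 0.00644).

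The genes most used as markers of an acute phase did not pass. Saa1, a serum amyloid A gene, was at 55.3, 41.6, 60.2 and 45.7 CPM in N1 to N4 and at 119.9, 64.1, 49.0 and 138 CPM in K1 to K4, where K3 lay within the normal range (0.87 ± 0.35, edgeR adjusted p = 0.207). Saa2, its near-identical neighbour, was at 20.2 ± 5.80 and 20.8 ± 16.1 CPM (0.04 ± 0.49, edgeR adjusted p = 0.983), and its sign turned without K1 (-0.66), N2 (-0.03) or N4 (-0.09). Lcn2, encoding lipocalin-2, was at 3.08 ± 0.428 in normal and at 9.61, 5.40, 4.14 and 2.46 CPM in K1 to K4 (0.82 ± 0.34, edgeR adjusted p = 0.217). Orm1, an orosomucoid, was at 655 ± 99.5 and 689.9 ± 29.8 CPM (0.07 ± 0.14), and was -0.03 without N3. Differences of Saa3 (1.02 ± 0.52), Orm2 (0.45 ± 0.24), the fibrinogen chain Fgb (0.29 ± 0.15) and the iron hormone gene Hamp (0.38 ± 0.24) did not pass either (edgeR adjusted p = 0.349, 0.364, 0.344 and 0.484). In WT vehicle against normal, Lcn2 (1.08 ± 0.34), Fgb (0.33 ± 0.15) and Hamp (0.71 ± 0.24) did not pass (edgeR adjusted p = 0.115, 0.307 and 0.149). Serpina3n was at 384 ± 15.9 in normal, 495 ± 23.3 in knockout vehicle and 638 ± 57.3 CPM in WT vehicle livers, with no overlap between the 3 groups. Against normal it was 0.37 ± 0.12 in knockout (edgeR adjusted p = 0.0967) and 0.73 ± 0.12 in WT (edgeR adjusted p = 0.0025). Knockout minus WT vehicle, -0.37 ± 0.12, did not pass (edgeR adjusted p = 0.545). Of the positive acute phase calls that of Hp held when any 1 of the 8 libraries was left out. Those of Serpina3m (without N2 or K2, 0.60 and 0.56, adjusted p = 0.0505 and 0.0631), Itih3 (without N3, N4 or K2, 0.38 to 0.47, adjusted p up to 0.0861), Cp (without N4, K1 or K2, 0.42 to 0.47, adjusted p up to 0.0938) and Lbp (without any except K3 or K4, 0.68 to 0.79, adjusted p up to 0.107) did not.

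Of 14 negative acute phase genes, whose products fall in inflammation, 1 rose and none fell (median 0.17). It was albumin (Alb), at 49149.6 ± 3032 CPM in normal and 68481 ± 2785 CPM in knockout vehicle livers (0.48 ± 0.11, edgeR adjusted p = 0.0177). The call was lost without N2, N3 or K2 (0.43 to 0.47, adjusted p up to 0.0666). Its level in WT vehicle livers, 59334 ± 6819 CPM, did not pass against normal (edgeR adjusted p = 0.213).

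Genes of IL-6 reception and STAT3 feedback had 1 rise and 2 falls among 22 (median 0.11). Both falls were of C/EBP transcription factors, which cooperate with STAT3 at acute phase promoters. Cebpb was at 201, 204, 259 and 221 CPM in N1 to N4 and at 172, 134, 147 and 135 CPM in K1 to K4 (-0.59 ± 0.10, edgeR adjusted p = 0.00249), and Cebpd at 13.6 ± 2.79 and 8.10 ± 1.41 CPM (-0.74 ± 0.15, edgeR adjusted p = 0.0104). Neither group pair overlapped, and in WT vehicle livers, at 177 ± 16.7 and 9.93 ± 1.93 CPM, neither gene passed. Pim1, a kinase gene induced by STAT signals, rose 1.98-fold to 37.2 ± 11.3 CPM (edgeR adjusted p = 0.0225), with N4 and K2 at about the same level, 28.7 and 28.6 CPM, and lost its call without N1, N2, N3 or K1 (0.75 to 0.96, adjusted p up to 0.0728). Stat3 itself was at 52.2 ± 4.88 in normal and 68.7 ± 11 CPM in knockout vehicle livers (0.40 ± 0.22, edgeR adjusted p = 0.382). In WT vehicle livers it rose 2.14-fold to 112 ± 51.1 CPM (edgeR adjusted p = 0.0130), V1 being highest at 185 CPM. The difference between the injected groups, -0.70 ± 0.22, did not pass (edgeR adjusted p = 0.537). The feedback inhibitor Socs3 was at 23.4, 7.60, 6.10 and 8.35 CPM in N1 to N4 and at 25.5, 11.5, 8.66 and 14.2 CPM in K1 to K4 (0.40 ± 0.40, edgeR adjusted p = 0.689). Without N1 it was 1.03 (adjusted p = 0.106).

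Of 24 glucocorticoid receptor genes and classic targets, 1 rose in knockout vehicle livers and none fell (median -0.05), where 3.22% of all genes passed. It was Fkbp5, a co-chaperone of the receptor and one of its most sensitive targets, at 43.7, 50.3, 48.3 and 60.6 CPM in N1 to N4 and at 60.9, 115, 94.1 and 78.2 CPM in K1 to K4. K1 lay just above N4, and the rise was 1.72-fold (0.78 ± 0.16, edgeR adjusted p = 0.0106). The call was lost without K2 (0.62, adjusted p = 0.0505) and in a fit to these 8 libraries alone (0.78, 0.0661). WT vehicle libraries held 129, 137, 122 and 178 CPM, above every knockout library (1.48 ± 0.16 against normal, edgeR adjusted p = 5.73e-05). Knockout minus WT vehicle was -0.70 ± 0.16 and did not pass (edgeR adjusted p = 0.142).

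Heat shock genes formed the list with the most falls. Of 23 cytosolic heat shock and chaperone genes, 7 fell, none rose and 16 did not pass (median -0.29); in WT vehicle against normal 4 fell. Hspa1b, an inducible HSP70 gene with a near-identical copy in Hspa1a, was at 9.56, 86.2, 14.0 and 9.17 CPM in N1 to N4 and at 4.37, 3.21, 2.96 and 3.22 CPM in K1 to K4. N2 stood far above the other normal libraries, yet even without it the groups did not overlap (-3.11 ± 0.67, edgeR adjusted p = 0.0224; without N2 -1.67, adjusted p = 0.0150). Hspa1a was at 1.74, 15.2, 1.53 and 1.08 CPM in N1 to N4 and at 0.351, 0.779, 0.373 and 0.410 CPM in K1 to K4 (-3.32 ± 0.81, edgeR adjusted p = 0.0368). Without N2 it was -1.58 and did not pass (adjusted p = 0.0792).

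Other members of the list fell by less. Hspa8, the main constitutive HSP70, was at 790.2, 1272, 832 and 835 CPM in N1 to N4 and at 532, 433, 617 and 609 CPM in K1 to K4 (-0.77 ± 0.14, edgeR adjusted p = 0.00414). The HSP70 partners Dnajb1 and Bag3 were at 28.0 ± 12.2 and 76.3 ± 28.1 CPM in normal and at 13.6 ± 1.19 and 39.2 ± 2.67 CPM in knockout vehicle livers (-1.05 ± 0.19 and -0.96 ± 0.16, edgeR adjusted p = 0.00414 and 0.00242). Chordc1, an HSP90 co-chaperone whose start region is shown above, was at 18.3, 31.0, 22.8 and 20.7 CPM in N1 to N4 and at 16.4, 13.6, 14.0 and 13.5 CPM in K1 to K4 (-0.69 ± 0.16, edgeR adjusted p = 0.0190). Dnaja1, another HSP70 partner, was at -0.59 ± 0.14 on the log2 scale (edgeR adjusted p = 0.0213). N2 was the highest normal library for each of these genes, and without that library the list had 4 falls. Without K2 in its place it had 3. The calls lost were Chordc1 without N2 (-0.52, adjusted p = 0.0735) or K2 (-0.66, 0.0752), Dnaja1 without N2 (-0.41, 0.0844) or K2 (-0.55, 0.0855), Hspa1b without K2, K3 or K4 (-3.08 to -3.05, adjusted p up to 0.0840) and Hspa1a without any knockout library (-3.68 to -3.20, adjusted p up to 0.0911). Hspa8, Dnajb1 and Bag3 held in each omission but not in a fit to these 8 libraries alone (adjusted p = 0.0525, 0.0880 and 0.0733). In WT vehicle livers, at 619.7 ± 43.7, 14.3 ± 1.29 and 45.6 ± 2.66 CPM, they fell against normal too (edgeR adjusted p = 0.0286, 0.00954 and 0.0165). Hsph1, named after its values were seen, was at 43.5 ± 24.9 and 18.2 ± 1.62 CPM and did not pass (edgeR adjusted p = 0.0522), but did without N1 (-1.44, 0.0374) or N4 (-1.43, 0.0417).

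**Figure D3:**
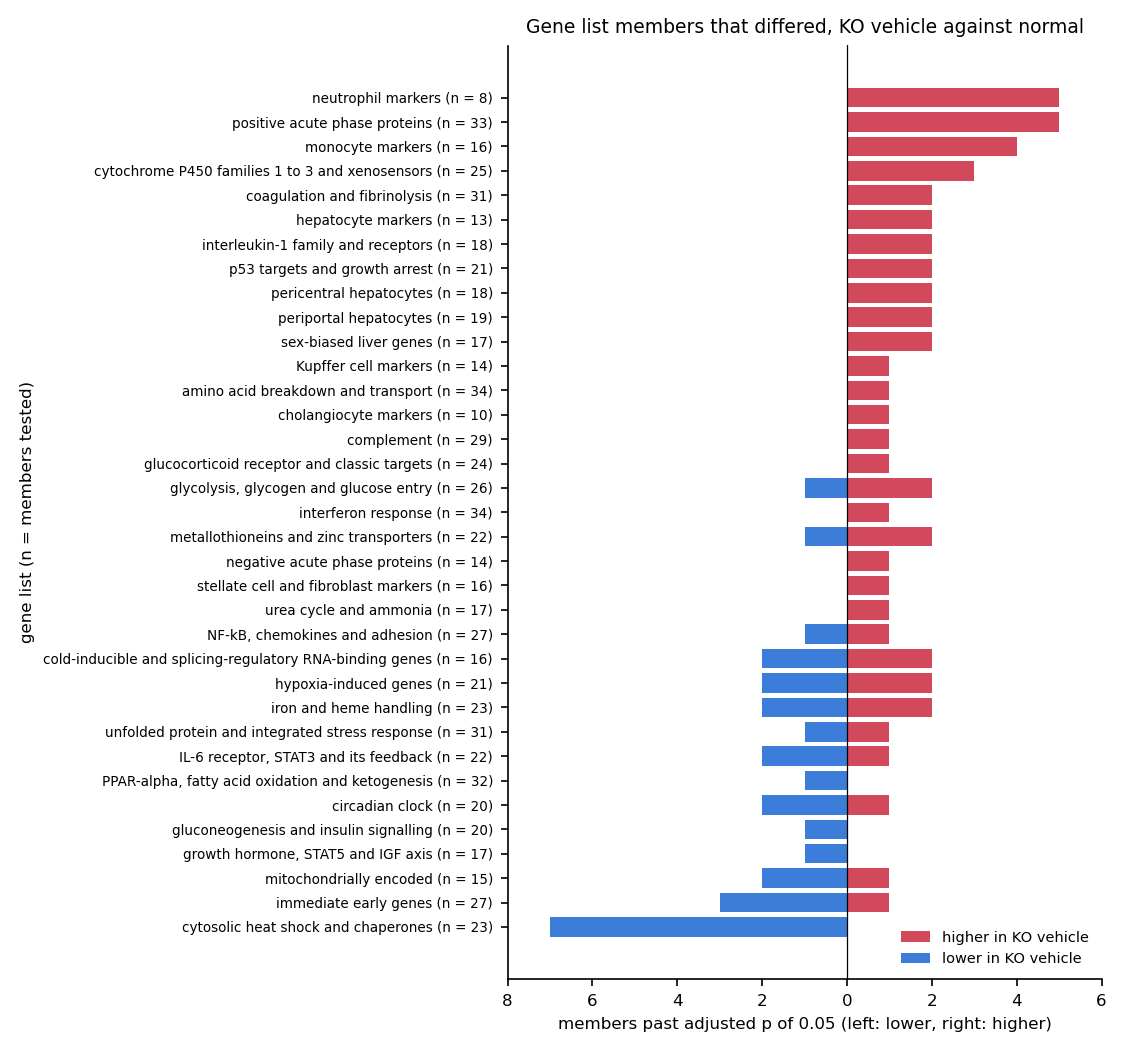
Bars count the members of each gene list that passed an adjusted p of 0.05 in knockout vehicle against normal, to the right where higher and to the left where lower; n is the number of members tested, and lists with no such member are left out. Heat shock genes had 7 falls, and neutrophil markers and positive acute phase genes 5 rises each. With any 1 of the 8 libraries left out, these counts were 3 to 8, 2 to 3 and 1 to 5 in that order.

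In the unfolded protein and integrated stress response, 1 of 31 genes fell and 1 rose (median 0.10), while in WT vehicle against normal 5 fell and none rose (median -0.14). Dnajb9, a chaperone partner of the endoplasmic reticulum, was at 44.6, 80.2, 49.6 and 62.0 CPM in N1 to N4 and at 34.0, 25.2, 24.6 and 30.0 CPM in K1 to K4 (-1.06 ± 0.15, edgeR adjusted p = 0.000919), and held in each omission. WT vehicle livers were at 28.9 ± 2.16 CPM, close to the knockout level. Sesn2, an inhibitor of mTORC1 that p53 and stress induce, rose 1.42-fold to 9.81 ± 1.75 CPM (edgeR adjusted p = 0.0423), and lost its call without N1, N2, N4, K2 or K4 (0.39 to 0.49, adjusted p up to 0.189). It was also 1 of 2 rises among 21 p53 and growth arrest genes (median -0.09). The other was Bbc3, encoding the pro-apoptotic protein PUMA, 1.87-fold higher at 10.7 ± 1.18 CPM (edgeR adjusted p = 0.0172), lost without N2 (0.76, adjusted p = 0.0557) or K2 (0.83, 0.0675).

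Among 27 immediate early genes, which respond to signals within minutes, 3 fell and 1 rose (median -0.15). Zfp36, which destabilises cytokine mRNAs, was at 168 ± 31.1 in normal and 102 ± 15.8 CPM in knockout vehicle livers (-0.72 ± 0.17, edgeR adjusted p = 0.0248), and its relative Zfp36l1 rose 1.59-fold to 159 ± 59.2 CPM, with K2 highest at 246 CPM (edgeR adjusted p = 0.0446). The factor Klf4 was at 2.23 ± 0.672 and 1.03 ± 0.116 CPM (-1.12 ± 0.26, edgeR adjusted p = 0.0213). Fosb, an AP-1 subunit, was at 9.24 CPM in N1 but at 0.177, 0.498 and 0.189 CPM in N2 to N4, and at 0.0162 to 0.156 CPM in knockout vehicle libraries. Its value of -4.97 was -1.9 without N1 and then did not pass (adjusted p = 0.111), nor did it without any 1 knockout library (-5.55 to -4.59, adjusted p up to 0.141). Calls were also lost for Zfp36 without N3, N4, K3 or K4 (-0.72 to -0.61, adjusted p up to 0.0788), for Klf4 without N1, N3 or K2 (-1.08 to -0.98, adjusted p up to 0.0801) and for Zfp36l1 without N1, N2, N3, N4 or K2 (0.37 to 0.73, adjusted p up to 0.161).

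Clock genes drive daily rhythms of liver transcription, and Per and Bmal1 transcripts peak at opposite times of day. Of 20 clock genes, 2 fell and 1 rose (median -0.19), and none passed in WT vehicle against normal. Per2, a repressor of the clock, was at 15.1, 20.6, 25.1 and 19.2 CPM in N1 to N4 and at 4.87, 6.52, 9.68 and 11.2 CPM in K1 to K4, without overlap (-1.32 ± 0.29, edgeR adjusted p = 0.0190). Bhlhe40, another repressor, was at 137 ± 44.6 and 72.9 ± 16.4 CPM (-0.91 ± 0.23, edgeR adjusted p = 0.0368). Nfil3, a repressor of clock output genes, was at 9.47, 11.1, 12.4 and 9.95 CPM in N1 to N4 and at 27.6, 34.2, 15.6 and 14.9 CPM in K1 to K4 (1.11 ± 0.28, edgeR adjusted p = 0.0423).

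Within the knockout vehicle group Arntl, Nfil3, Dbp and Per3 were spread, with K1 and K2 on one side and K3 and K4 on the other. Both clock genes called lower were split the same way: Per2, as given above, and Bhlhe40, at 51.4, 68.9, 86.8 and 84.5 CPM in K1 to K4. Ciart, Bhlhe41 and Clock were also split so. Per1 was not split that way, at 9.61, 36.6, 21.9 and 34.8 CPM in K1 to K4, nor were Cry1, Cry2 and Nr1d1. Arntl, which encodes the activator BMAL1, was at 12.8, 17.2, 4.10 and 2.66 CPM in K1 to K4 and at 1.84 ± 0.891 CPM in normal livers (2.33 ± 0.62, edgeR adjusted p = 0.0558). Without K4 it was 2.64 and passed (adjusted p = 0.0251). The output gene Dbp was at 16.7, 36.4, 136 and 186 CPM and Per3 at 1.09, 3.20, 8.74 and 16.5 CPM in K1 to K4, against 184 ± 44.1 and 11.1 ± 3.26 CPM in normal livers (-0.97 ± 0.65 and -0.60 ± 0.62, edgeR adjusted p = 0.509 and 0.703). Without K4 Per3 was -1.36 (adjusted p = 0.271). In the WT vehicle group V1 was the lowest for Dbp (41.3 CPM) and Per3 (4.45 CPM) and the highest for Arntl (9.53 CPM). Per1, Nr1d1 and Clock were at 25.7 ± 12.6, 151 ± 15.9 and 16.7 ± 2.88 CPM and did not pass (edgeR adjusted p = 0.393, 0.324 and 0.679). No source used here gives the hour of day at which livers were taken. Calls were lost for Per2 without N3 (-1.2, adjusted p = 0.0532) or K2 (-1.23, 0.0809), for Bhlhe40 without N1, N2, N4, K1 or K2 (-0.97 to -0.67, adjusted p up to 0.123) and for Nfil3 without any except K3 or K4 (0.85 to 1.18, adjusted p up to 0.155).

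**Figure D4:**
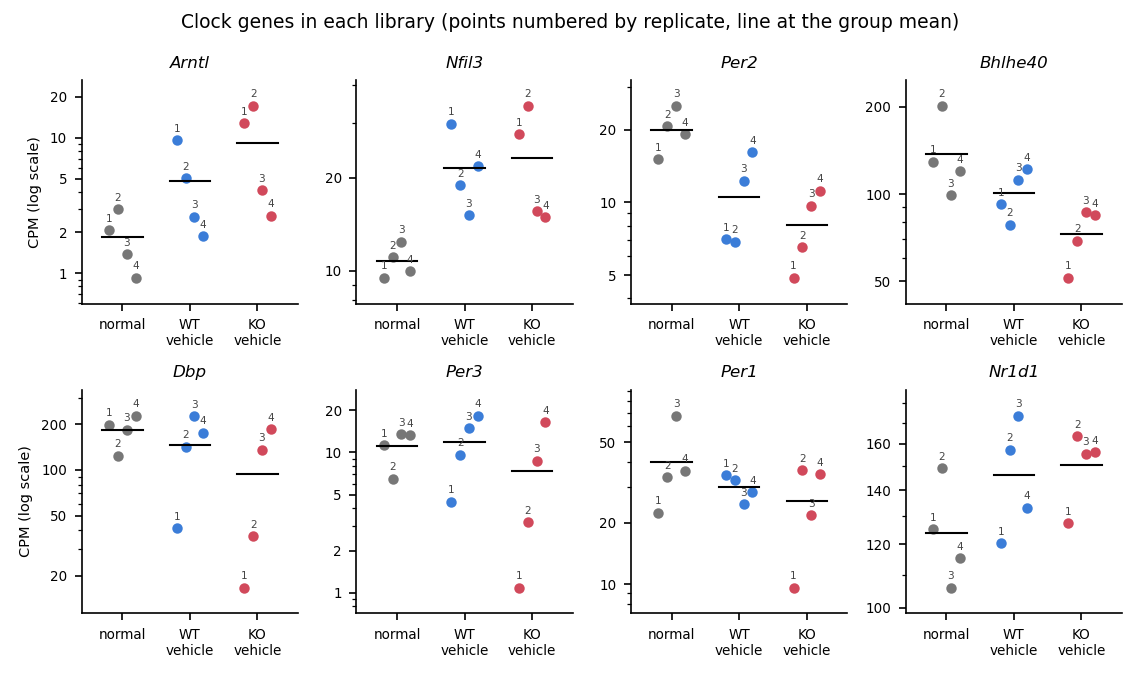
CPM (log scale) of 8 clock genes in each library of the normal, WT vehicle and knockout (KO) vehicle groups, with replicate numbers and group means as lines. K1 and K2 lie above K3 and K4 for Arntl and Nfil3 and below them for Per2, Bhlhe40, Dbp and Per3.

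In carbohydrate metabolism, 2 of 26 genes of glycolysis, glycogen and glucose entry rose and 1, Pfkfb3, fell (median -0.05). The glucose transporter gene Slc2a1 rose 1.59-fold to 12.8 ± 1.9 CPM and Pfkfb1, the liver form of the bifunctional enzyme, 1.42-fold to 59.8 ± 11.6 CPM (edgeR adjusted p = 0.0224 and 0.0373). Slc2a1 was also among the 2 rises and 2 falls of 21 hypoxia-induced genes (median -0.09), with Epas1, encoding HIF-2 alpha, 1.39-fold higher at 204 ± 30.8 CPM (edgeR adjusted p = 0.0420). The falls there were Pfkfb3 and Ankrd37, which was at 3.28, 1.06, 0.722 and 0.996 CPM in N1 to N4 and at 0.341 to 0.760 CPM in knockout vehicle libraries, with overlap (-1.49 ± 0.38, edgeR adjusted p = 0.0360). Of 20 genes of gluconeogenesis and insulin signalling, 1 fell (median -0.01): Pik3r1, the regulatory subunit of PI3-kinase, at 55.6, 49.1, 65.2 and 68.2 CPM in N1 to N4 and 35.6, 33.8, 38.3 and 34.5 CPM in K1 to K4 (-0.74 ± 0.11, edgeR adjusted p = 0.000871). Both Pfkfb3 and Pik3r1 held in each omission. The calls of Slc2a1 (without N2, N4 or K2, 0.58 to 0.65, adjusted p up to 0.0956), Pfkfb1 (without N1, N2, N3, K1, K2 or K3, 0.37 to 0.57, adjusted p up to 0.135), Epas1 (without any except K4, 0.42 to 0.51, adjusted p up to 0.142) and Ankrd37 (without N1, K2, K3 or K4, -1.48 to -0.80, adjusted p up to 0.172) did not.

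In lipid metabolism, calls were at or below the share over all genes tested (3.22%). None of the 23 lipogenic, 25 cholesterol, 17 lipid droplet or 22 bile acid genes passed, with medians of -0.28, 0.03, -0.10 and 0.08. Of 32 genes of PPAR-alpha and fatty acid oxidation 1 fell (median -0.03), the peroxisomal thiolase gene Acaa1b, at 781 ± 28.6 and 490.2 ± 114 CPM (-0.67 ± 0.17, edgeR adjusted p = 0.0332). Its call was lost without N1, N2, N3, N4, K2 or K3 (-0.71 to -0.52, adjusted p up to 0.115). Of 25 cytochrome P450 genes and xenosensors, which handle drugs and steroids, 3 rose (median 0.16). Cyp3a11 rose 1.61-fold to 1044 ± 229 CPM, Cyp3a25 1.58-fold to 273 ± 50.2 CPM and Cyp2c29 1.34-fold to 1295 ± 218 CPM (edgeR adjusted p = 0.0118, 0.0166 and 0.0447), and K2 was the highest library for each. Without K2 none of the 3 passed (0.55, 0.53 and 0.30, adjusted p = 0.0621, 0.0802 and 0.200). Cyp3a25 was also lost without N2 or N4 (0.62 and 0.59, adjusted p up to 0.0578) and Cyp2c29 in each omission except that of K1 (up to 0.45).

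Of 23 iron and heme genes, 2 rose and 2 fell (median 0.21), the rises being Hp and Cp, which are acute phase genes as well. Alas1, the rate-limiting enzyme of heme synthesis, was at 569.7, 306, 402 and 886 CPM in N1 to N4 and at 209, 76.1, 203 and 316 CPM in K1 to K4. N2 lay within the knockout range and the difference was -1.43 ± 0.36 (edgeR adjusted p = 0.0407), lost without N1, N3, N4, K1, K2 or K3 (-1.56 to -1.08, adjusted p up to 0.117). Tfrc, the transferrin receptor, was at 5.03 ± 1.1 and 2.82 ± 0.402 CPM (-0.84 ± 0.18, edgeR adjusted p = 0.0128), and held in each omission. Hemojuvelin, a co-receptor that controls hepcidin, is listed in the gene table as Hfe2 and was left out of the list count by its name. Picked after its values were seen, it was at 72.2, 67.7, 62.6 and 68.9 CPM in N1 to N4 and at 129.8, 119, 111 and 85.7 CPM in K1 to K4 (0.72 ± 0.11, edgeR adjusted p = 0.000871).

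Other plasma protein genes gave 1 or 2 calls per list. Coagulation factor XI (F11) rose 1.70-fold, from 96.5 ± 6.08 to 164 ± 20.6 CPM (edgeR adjusted p = 0.00117), and plasminogen (Plg) 1.22-fold to 2823 ± 169.7 CPM (edgeR adjusted p = 0.0469), 2 of 31 coagulation and fibrinolysis genes (median 0.09). C4bp, a complement inhibitor, rose 1.29-fold to 507 ± 60.3 CPM, 1 of 29 complement genes (edgeR adjusted p = 0.0467, median 0.12). Among 17 sex-biased liver genes 2 rose (median 0.11), Mup21 and Serpina1e, an alpha-1 antitrypsin copy, 1.59-fold to 14188 ± 2996 CPM (edgeR adjusted p = 0.0347). F11 held in each omission, while Plg was lost in all 8 (0.24 to 0.31, adjusted p up to 0.171), C4bp in all except that of K4 (0.30 to 0.39, up to 0.139) and Serpina1e without N3, N4, K1, K2 or K3 (0.55 to 0.68, up to 0.11). In nitrogen metabolism 1 of 17 urea cycle and ammonia genes rose (median 0.19), the ornithine aminotransferase gene Oat, 1.48-fold (edgeR adjusted p = 0.0485), and 1 of 34 amino acid genes (median 0.10), the glycine cleavage gene Gldc, 1.88-fold to 199.8 ± 57.9 CPM (edgeR adjusted p = 0.0208). Gldc and Alb were the 2 rises among 19 genes of periportal hepatocytes (median 0.08), and Oat and Zfp703 those among 18 of pericentral hepatocytes (median 0.38). For Oat and Gldc K2 was the highest library of its group, at 737 and 282 CPM. Without K2 they were 0.43 and 0.70 (adjusted p = 0.205 and 0.0809), and other omissions ended the call too, for Oat all except that of K4 and for Gldc those of N1, N2 and N4 (adjusted p up to 0.122).

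Reads of mitochondrial ribosomal RNA were at lower levels in both injected groups, in libraries made from poly(A)-selected RNA. The genes mt-Rnr1 and mt-Rnr2 were at 1055 ± 132 and 1236 ± 171 CPM in normal and at 621 ± 73.7 and 720.0 ± 45.7 CPM in knockout vehicle livers, without overlap (-0.76 ± 0.13 and -0.78 ± 0.10, edgeR adjusted p = 0.00249 and 0.000397). In WT vehicle livers they were at 595 ± 116 and 622 ± 58.4 CPM and also fell (edgeR adjusted p = 0.00222 and 2.8e-05). Of 15 mitochondrially encoded genes these 2 fell and 1, the complex I gene mt-Nd4l, rose 1.52-fold to 7.21 ± 0.75 CPM (edgeR adjusted p = 0.0168, median of the list 0.12), a call lost without N1, N4 or K2 (0.53 to 0.58, adjusted p up to 0.0610). Lars2, a nuclear gene, was at 281 ± 56.2 CPM in normal, 90.9 ± 13.3 CPM in WT vehicle and 131 ± 38.9 CPM in knockout vehicle livers (-1.09 ± 0.20 for knockout, edgeR adjusted p = 0.00515). An unnamed gene, ENSMUSG00000119584, was at 9237, 7999, 6225 and 6503 CPM in N1 to N4 and at 4552, 2021, 2496 and 3529.6 CPM in K1 to K4 (-1.25 ± 0.28, edgeR adjusted p = 0.0211). In WT vehicle livers this gene was at 1897 ± 476 CPM and also fell (-1.98 ± 0.28, edgeR adjusted p = 0.00178). Its knockout call was lost without N1, N2, K2 or K3 (-1.22 to -1.09, adjusted p up to 0.0761) and in a fit to these 8 libraries alone (-1.25, 0.0528). The poly(A) selection is given per the labels. Whether the lower levels of ribosomal RNA arose in the tissue or in the making of the libraries was not tested. Lars2 lost its call in a fit to these 8 libraries alone (-1.10, adjusted p = 0.0530). Lars2 and ENSMUSG00000119584 were picked after their values were seen. None of 31 nuclear respiratory chain and 47 ribosomal protein genes passed (medians -0.02 and -0.06).

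Genes of RNA handling changed in both directions, 2 higher and 2 lower of 16 cold-inducible and splicing-regulatory genes (median -0.04). The splicing factor gene Srsf5 rose 1.48-fold, from 153 ± 16.4 to 227 ± 12.9 CPM (edgeR adjusted p = 0.0015), while Srsf7 was at 24.0 ± 1.89 and 16.8 ± 0.997 CPM (-0.52 ± 0.09, edgeR adjusted p = 0.00263) and Tra2b at 25.9 ± 1.4 and 18.6 ± 2.21 CPM (-0.48 ± 0.11, edgeR adjusted p = 0.0166). Cirbp, a cold-inducible RNA-binding protein, rose 1.68-fold to 30.7 ± 2.23 CPM (edgeR adjusted p = 0.0415), lost in all omissions except that of N1 (0.58 to 0.80, adjusted p up to 0.112). Tra2b was lost without N2 (-0.45, adjusted p = 0.0526), and both Srsf genes held.

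Several neutrophil transcripts, all at low levels, were higher in knockout vehicle livers. Of 16 neutrophil markers 8 passed the filter on low counts, and 5 of those rose (S100a8, S100a9, Il1r2, Retnlg and Mmp9). Their filter kept genes that were high in only 1 of the groups, so this count is a description. Summed over all 16, the level was 1.49 to 2.46 CPM in normal, 1.74 to 3.87 CPM in WT vehicle and 5.32 to 7.31 CPM in knockout vehicle libraries, the last without overlap with the others. S100a8, which with S100a9 forms calprotectin, had 6, 7, 14 and 14 counts in N1 to N4 and 67, 53, 67 and 45 in K1 to K4. Its level rose from 0.166 ± 0.0549 to 1.11 ± 0.232 CPM (2.71 ± 0.35, edgeR adjusted p = 0.000351), and WT vehicle livers, at 0.242 ± 0.0576 CPM, were lower than knockout ones (2.16 ± 0.33, edgeR adjusted p = 0.00913). S100a9 went from 0.150 ± 0.0887 to 1.48 ± 0.519 CPM (3.24 ± 0.45, edgeR adjusted p = 0.000635), and its difference from WT vehicle did not pass (1.92 ± 0.40, edgeR adjusted p = 0.107). Retnlg had 0, 0, 1 and 2 counts in N1 to N4 and 9, 5, 12 and 7 in K1 to K4, a ratio of 11.8 with a 95% counting interval of 3.70 to 60.1. Il1r2, a decoy receptor of interleukin-1, had 1, 0, 0 and 0 counts in N1 to N4 and 6, 1, 2 and 5 in K1 to K4, a ratio of 15 (2.28 to 635). Their calls (edgeR adjusted p = 0.0380 and 0.0362) and that of Mmp9, a gelatinase gene at 0.216 ± 0.165 and 0.673 ± 0.147 CPM (edgeR adjusted p = 0.0452), were lost on omission of most single libraries. Mmp9 kept its call only without N2, Retnlg only without N4 (4.39, adjusted p = 0.0458) and Il1r2 only without N1 (4.90, 0.0274), K2 or K3, with adjusted p up to 0.112 elsewhere.

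Of 16 monocyte markers 4 rose and none fell (median 0.84). The summed level of all 16 was 1011.5 to 1079.9 CPM in normal, 1097.2 to 1417.0 CPM in WT vehicle and 1083.0 to 1408.2 CPM in knockout vehicle libraries. Both injected groups lay above normal, K4 only just. The 4 members that rose made up little of that sum, which came mostly from the other members and does not follow those that rose. Chil3, a chitinase-like protein of myeloid cells, had 1, 1, 2 and 3 counts in N1 to N4 and 14, 25, 29 and 18 in K1 to K4 (3.72 ± 0.51, edgeR adjusted p = 0.000568), and in V1 to V4 it had 38, 10, 10 and 10. Treml4, a receptor of monocytes and macrophages, was at 2.75 ± 0.586 and 5.98 ± 1.11 CPM and the integrin gene Itgam at 0.329 ± 0.129 and 0.714 ± 0.112 CPM (1.12 ± 0.25 and 1.11 ± 0.28, edgeR adjusted p = 0.0183 and 0.0325). Treml4 was lost without N1, N3, K2 or K3 (1 to 1.10, adjusted p up to 0.0612) and Itgam without N1, N2, N3, K1, K3 or K4 (0.95 to 1.2, adjusted p up to 0.108).

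Of 14 Kupffer cell markers 1 rose (median 0.59), and the summed level was 242 to 432 CPM in normal, 268 to 510.1 CPM in WT vehicle and 509.0 to 575 CPM in knockout vehicle libraries. The gene was Marco, at 2.13, 8.75, 5.34 and 3.97 CPM in N1 to N4, 5.68, 4.35, 4.57 and 3.14 CPM in V1 to V4 and 22.9, 23.3, 34.1 and 11.7 CPM in K1 to K4. All knockout libraries lay above all WT libraries (2.18 ± 0.51, edgeR adjusted p = 0.0302), but the difference from WT vehicle, 2.37 ± 0.51, did not pass (edgeR adjusted p = 0.150). The call against normal was lost without N1, N3, N4, K1, K2 or K3 (1.93 to 2.2, adjusted p up to 0.0862). Bin2, a gene of blood cells, and Ccl6, a chemokine of myeloid cells, were among the leading rises, 2.37-fold to 4.50 ± 0.422 CPM and 2.33-fold to 9.94 ± 1.24 CPM (edgeR adjusted p = 0.000738 and 0.00239). Both held in each omission, and Ccl6 also rose in WT vehicle livers, at 8.44 ± 1.98 CPM (edgeR adjusted p = 0.0126).

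**Figure D5:**
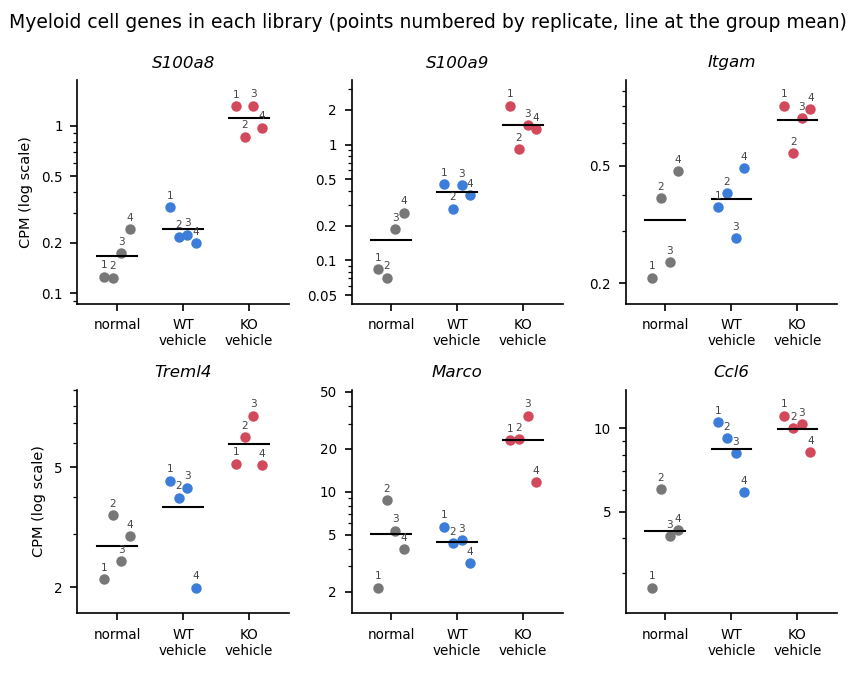
CPM (log scale) of 6 genes of neutrophils, monocytes and macrophages in each library of the normal, WT vehicle and knockout (KO) vehicle groups, with replicate numbers and group means as lines. The 4 knockout vehicle libraries lie above all normal libraries in each panel, and above all WT vehicle libraries for S100a8, S100a9, Itgam, Treml4 and Marco.

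Other cell types gave few calls. None of 14 B and plasma cell, 14 T and NK cell or 20 sinusoidal endothelial markers passed (medians 0.53, 0.43 and 0.25). The summed B and plasma cell level, 89.0 to 103 CPM in normal and 108 to 125 CPM in knockout vehicle libraries, did not overlap between these groups. WT vehicle libraries, at 60.7 to 116 CPM, overlapped both. Rgs5, a pericyte gene, was the 1 rise among 16 stellate cell and fibroblast markers (1.71-fold, edgeR adjusted p = 0.0368) and Sox9, a ductal cell factor, the 1 rise among 10 cholangiocyte markers (1.96-fold, edgeR adjusted p = 0.0477), while the medians of these lists were 0.15 and -0.82. Rgs5 was lost without N1, N2, N3, K2 or K4 (0.66 to 0.83, adjusted p up to 0.139) and Sox9 without any except N2 or K4 (0.84 to 0.99, adjusted p up to 0.149). No red blood cell, adipose, pancreas or kidney marker passed, and 7 of 11 pancreas markers were at 0 in all 8 libraries. What part the marker levels have in the other differences was not tested.

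Inflammatory signalling genes gave scattered calls. Irf1, an interferon-induced factor, rose 1.3-fold to 37.7 ± 3.17 CPM, the 1 call among 34 interferon response genes (edgeR adjusted p = 0.0421, median 0.02). Nfkbia, the NF-kB inhibitor, was at 49.2 ± 8.76 and 36.4 ± 2.97 CPM (-0.44 ± 0.11, edgeR adjusted p = 0.0308) and in WT vehicle livers at 32.0 ± 1.33 CPM (edgeR adjusted p = 0.00384). Cxcl13, a B cell chemokine and the 1 rise among 27 NF-kB and chemokine genes (median 0.09), was at 0.272 to 0.318 CPM in normal and at 0.936, 0.617, 3.75 and 0.518 CPM in K1 to K4 (2.34 ± 0.59, edgeR adjusted p = 0.0346), and without K3 it was 1.27 and did not pass (adjusted p = 0.149). Il1rn, the interleukin-1 receptor antagonist, rose 2.2-fold to 2.21 ± 0.47 CPM (edgeR adjusted p = 0.0477) and with Il1r2 made 2 rises among 18 interleukin-1 genes (median 0.18). Most of these calls were lost on single omissions: Irf1 without N1, N2, N4, K2, K3 or K4 (0.34 to 0.40, adjusted p up to 0.127), Nfkbia without N1, N2, N3, K1, K2 or K4 (-0.45 to -0.33, up to 0.101), Cxcl13 also without N1, N2, N3 or N4 (2.31 to 2.40, up to 0.0884) and Il1rn without any except N3 or K4 (0.99 to 1.22, up to 0.146). No gene passed among 24 NRF2 and 29 cell cycle genes (medians 0.04 and -0.09). Zfp703, a transcriptional repressor listed with the pericentral genes, rose 1.51-fold to 14.1 ± 1.57 CPM and held in each omission (edgeR adjusted p = 0.00412).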

How the data were processed

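Poly(A) RNA of mouse liver was sequenced in paired-end mode, per the labels' protocols. The authors deposited raw read counts per gene in 1 table of 55416 genes and 19 libraries, and the same counts by library, which did not differ from the table for any gene. HISAT2 2.2.1, SAMtools 1.13, HTSeq 0.11.3 and build GRCm39 are named per the submitters' processing notes; no source used here gives the annotation release or the strand setting, so overlapping and antisense genes cannot be told apart. Lines of HTSeq's summary did not enter the library sizes; in the 8 libraries 14.07% to 18.7% of reads were not uniquely placed and 6.42% to 7.33% lay in no feature.

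Counts were tested in edgeR 4.0.16 (R 4.3.3) with the quasi-likelihood test. The default filter on low counts kept 15570 genes, 15542 of them with a symbol. Libraries were scaled by TMM, each of the 5 groups had its own mean, and all 19 libraries shared 1 estimate of the spread. P-values were adjusted by Benjamini-Hochberg over all genes tested, with a threshold of 0.05. The code was tested on simulated data. No pair of libraries within a group agreed within sampling noise, so none was merged. A fold against a group at 0 was taken against 3 counts, and counting intervals (95%, exact) cover counting error only.

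Genes were named by rule: the marker genes of the comparison, the 12 largest changes per direction among called genes of at least 2 CPM whose groups did not overlap, and up to 4 called genes per list and direction. A part of the rule on genes by distance from Il6 needed GRCm39 positions and was not applied; gene order in RefSeq (GRCm38.p6) was used in its place. The members and the 50 gene lists were chosen with earlier results of these data known. The values of 1 called list member are not reported here. Of the list symbols, 3 were not matched (Ero1a, G6pc1 and Hjv). Alternatives were other scaling, other filters, DESeq2 1.42.0, limma-voom (limma 3.58.1), glmTreat, a fit to 2 groups, a replicate block and omission of each library.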

Additional observations from a re-analysis of the deposited data

Results flagged for a closer look

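In the normal and knockout vehicle groups, 124 genes were checked for a library set apart from the other 3 by Dixon's criterion at the 95% level, 248 groups in all, and 20 met it. Chance alone gives about 1 in 20 groups. Of these, 12 were in normal libraries, 5 of them in replicate 2. That library was high for Hspa1a (15.185 CPM), Hspa1b (86.18 CPM), Hspa8 (1272.3 CPM) and Sox9 (9.2986 CPM), and also set apart for Cxcl13 (0.3182 CPM). Normal replicate 1 was high for Fosb (9.2436 CPM), Ankrd37 (3.2834 CPM), Socs3 (23.444 CPM) and Il1r2 (0.020913 CPM, 1 count). Normal replicate 3 was set apart for Stat3 (59.452 CPM), and replicate 4 for Slc39a14 (122.68 CPM) and Galnt11 (10.05 CPM). Among knockout vehicle libraries, replicate 1 was set apart for Saa2 (44.674 CPM) and Galnt11 (15.34 CPM), replicate 2 for Hspa1a (0.77897 CPM), Nrep (2.4181 CPM) and Alb (72647.8 CPM), replicate 3 for Cxcl13 (3.7502 CPM), and replicate 4 for Cabyr (0.69104 CPM) and Ikbke (17.578 CPM).

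For 11 genes the difference from normal was not the same in the 2 injected groups, by the edgeR test of knockout vehicle minus WT vehicle. On the log2 scale that difference was 3.939 for Abhd1, 5.489 for Gm2420, 4.368 for Gm10419, 2.161 for S100a8, 1.086 for Mup21, 0.8224 for Susd4, 0.6033 for Ikbke and 0.4269 for Galnt11. It was -3.78 for AI506816, -1.18 for Slc39a4 and -0.812 for Rint1. The fitted values of Gm2420 and Gm10419 depend on the prior count.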

How the results depend on the processing

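For knockout vehicle against normal, 502 genes passed, and 388 to 729 did so under other scaling (RLE 514, upper quartile 532), filters (none 388, 1 CPM in 3 libraries 492) or limma-voom (729). DESeq2 called 853 (523 higher, 330 lower), glmTreat beyond 1.5-fold 19 (10 and 9) and a fit to the 2 groups 248 (142 and 106). Leaving out 1 library gave 176 to 477 genes, 96 to 302 higher and 80 to 187 lower. For WT vehicle against normal (311), DESeq2 gave 655, limma-voom 648, glmTreat 13, the 2-group fit 162 and omissions 128 to 299. Between the injected groups (11), these were 56, 21, 4 and 6, with 2 to 15 on omissions. With a replicate block the counts were 441, 291 and 11. The numbers do not pair the libraries: same-numbered normal and knockout libraries correlated at 0.15, -0.01, -0.13 and 0.12, and 1 of 4 correlated best with its own number. Of 103 called genes named, glmTreat ended 91 calls, the 2-group fit 46, no filter 23, the replicate block 16, limma-voom 12, upper quartile scaling 2 and RLE 0. The 46 are not all marked above, and include Cyp3a11, Coq10b, Nrep and Itih3 (edgeR adjusted p = 0.064, 0.097, 0.0523 and 0.0594 in that fit). The sign of Saa2 (0.04), which did not pass, turned under limma-voom (-0.26), the replicate block (-0.14) and omissions (-0.66 to 0.28), and that of Orm1 under omissions (-0.029 to 0.16). The causes were not tested. With 4 libraries a group, small differences may go undetected.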

Other observations

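Some genes in no list of the report rose at close levels in both injected groups and kept their call when any 1 of the 8 libraries was left out; they were chosen after their values were seen. Slc8b1, the mitochondrial sodium-calcium exchanger, was at 45.0, 33.7, 39.2 and 37.3 CPM in N1 to N4 and at 65.1, 77.8, 70.4 and 75.7 CPM in K1 to K4 (0.90 ± 0.09, edgeR adjusted p = 1.56e-05), with 73.0 ± 5.40 CPM in WT vehicle livers. Tcp11l2 was at 11 ± 0.963 CPM in normal, 20.9 ± 2.12 CPM in knockout vehicle and 20.8 ± 2.58 CPM in WT vehicle livers (0.92 ± 0.10 for knockout, edgeR adjusted p = 1.58e-05). Nab2, a corepressor of EGR factors, was at 19 ± 3.74, 42.1 ± 5.30 and 38.6 ± 10.2 CPM in the same order (1.15 ± 0.17, edgeR adjusted p = 0.000871). Acox2, a peroxisomal oxidase of bile acid intermediates, was at 187 ± 14.3, 288 ± 47.9 and 276 ± 24.3 CPM (0.63 ± 0.10, edgeR adjusted p = 0.00218). None of these passed between the injected groups, where the log2 differences were -0.01 ± 0.09, 0.01 ± 0.10, 0.13 ± 0.16 and 0.06 ± 0.10.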
